A study of Mus musculus with 9 samples.

Results

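The 9 genes described here encode complement proteins that myeloid cells make or sense, namely C1qa, C1qb, C1qc, C3, C4b, C3ar1, C5ar1, Cfb and Cfp. They were taken by symbol from a table of 53801 genes counted in CD11b+ cells, and all 9 passed the low-count filter that left 12538 protein-coding genes to test. The cells were sorted by flow cytometry from the tumor-bearing hemispheres of male C57BL/6J mice implanted with GL261 glioma cells that carry luciferase and tdTomato. The mice were 10 to 12 weeks old at the start of the study. CTR mice (2 libraries) received saline. The OAT-1746 group (2 libraries) received this oral inhibitor of arginase 1 and 2 by gavage at 50 mg/kg, 2 times a day from day 1. The anti-PD-1 group (2 libraries) received an antibody against PD-1 at 2.5 mg/kg in 4 intraperitoneal injections from day 8 to day 14, and the COMB group (3 libraries) received both agents. The anti-PD-1 replicate 2 library carries the treatment name anti-PD-2 and was grouped by its title. The collection day is given as 28 in the methods and as 21 in a legend. The libraries are separate biological replicates, but whether a library pools mice is not given in the sources used here. Total counts on genes were 17490386 and 17729568 in CTR, 17380045 and 16784406 in OAT-1746, 14356928 and 18796479 in anti-PD-1, and 13048075, 16144518 and 14806017 in COMB. The p-values below measure differences against the spread between separate biological replicates.

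Complement is a cascade of plasma and tissue proteins that tags cells and debris for removal by phagocytes. In the classical pathway C1q, built of A, B and C chains, binds its target and leads to cleavage of C4 and then of C3, while in the alternative pathway factor B and properdin build and hold the enzyme that cleaves more C3. The small fragments C3a and C5a are sensed by G protein-coupled receptors on myeloid cells, and in the brain microglia and macrophages are the main source of C1q.

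The sort antigen CD11b is encoded by Itgam, which is also the alpha chain of complement receptor 3, and it was detected in all 9 libraries, from 294 to 446 CPM (counts scaled to a common library total, here after TMM normalization in edgeR). The 11 microglia markers summed to between 13761 CPM in CTR replicate 1 and 36244 CPM in OAT-1746 replicate 2. The 10 monocyte and macrophage markers, led by Tgfbi, summed to 8471 and 7490 CPM in the CTR libraries, 5735 and 824 in OAT-1746, 6781 and 8772 in anti-PD-1, and 5607, 8237 and 8675 in COMB. OAT-1746 replicate 2 therefore stood apart, with the highest microglia sum and the lowest monocyte sum of the 9 libraries. None of the markers in these lists was at 0 counts in any library. Its correlation of log2 CPM with each of the others, over the 12538 tested genes, lay between 0.911 and 0.956, and pairs made of the other 8 libraries lay between 0.960 and 0.989 (Pearson's r across genes, which are not independent replicates). For several values below, the value without this library is given too. In these bulk samples, fewer cells of a type and less RNA per cell cannot be told apart.

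The C1q genes lie next to each other on the minus strand of chromosome 4, within 18675 bases from 136880129 to 136898803 of GRCm38 (mm10), and each has 3 merged exons (C1qa ENSMUSG00000036887, C1qb ENSMUSG00000036905, C1qc ENSMUSG00000036896). Per kilobase of merged exons they had the highest levels of the 9 genes, and their mean levels ranked 4, 9 and 14 among all tested genes for C1qa, C1qb and C1qc. Median levels over the 9 libraries were 5237 CPM per kilobase for C1qa, 3311 for C1qb and 2546 for C1qc, and their ranges did not overlap. C3ar1 followed with a median of 117 CPM per kilobase, then C3 with 83.1, Cfp with 78.4, C5ar1 with 56.7 and C4b with 43.1, and the ranges of neighbors in this order overlapped. Cfb was lowest, with a median of 2.00 and at most 4.12 CPM per kilobase, below the lowest library of each other member.

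RefSeq promoter windows of 300 bases, 250 before and 50 after the annotated start (GRCm38), were found for 6 of the 9 genes, and those of C1qa, C4b and Cfb were missing. The parts before the start and outside annotated exons are shown for C1qb and C1qc, whose levels were steady, and for C3 and Cfp, whose levels varied most among the members with such a window. Capitals mark matches, on either strand, to 5 motifs that myeloid and interferon-responsive factors are known to bind: GAGGAA (PU.1 core), GAAANNGAA (interferon-stimulated response element core), TTCNNNGAA (gamma-activated sequence), GGANNTTCC (NF-kappaB core) and TGCTGA (MAF site).
C1qb upstream (chr4:136886201-136886450, minus strand, 250 bases): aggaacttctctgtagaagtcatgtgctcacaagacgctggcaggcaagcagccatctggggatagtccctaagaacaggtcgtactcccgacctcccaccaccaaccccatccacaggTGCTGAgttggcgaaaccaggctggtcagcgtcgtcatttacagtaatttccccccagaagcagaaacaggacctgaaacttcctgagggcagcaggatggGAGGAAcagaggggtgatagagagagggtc
C1qc upstream (chr4:136893066-136893164, minus strand, 99 bases): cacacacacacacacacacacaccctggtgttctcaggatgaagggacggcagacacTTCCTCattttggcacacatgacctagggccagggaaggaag
C3 upstream (chr17:57228137-57228386, minus strand, 250 bases): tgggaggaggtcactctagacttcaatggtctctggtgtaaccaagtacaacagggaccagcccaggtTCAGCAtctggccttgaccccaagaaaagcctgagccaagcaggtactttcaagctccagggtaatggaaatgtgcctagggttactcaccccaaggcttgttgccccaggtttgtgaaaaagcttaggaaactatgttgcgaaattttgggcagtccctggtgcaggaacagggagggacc
Cfp upstream (chrX:20931556-20931805, minus strand, 250 bases): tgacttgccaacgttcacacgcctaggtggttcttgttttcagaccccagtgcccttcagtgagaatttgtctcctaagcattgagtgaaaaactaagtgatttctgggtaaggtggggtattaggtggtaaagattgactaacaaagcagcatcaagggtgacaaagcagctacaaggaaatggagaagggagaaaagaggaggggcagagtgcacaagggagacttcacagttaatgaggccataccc

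GAGGAA occurred in the windows of C1qb, C1qc and Cfp, and in 28.3% of all 32851 windows of the table. In Cfp both matches lie after the start and are not shown. TGCTGA occurred in the windows of C1qb, C3, C3ar1 and C5ar1, and in 19.5% of all windows. GAAANNGAA was found for C5ar1 among the members (8.56% of all windows), and TTCNNNGAA (8.30%) and GGANNTTCC (4.26%) for none of the 6. A match to such short letters is a description of the window and not a bound site.

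The C1q chains form the recognition molecule of the classical pathway, and their levels varied little between libraries. C1qa had 5478 and 5856 CPM in CTR, 5415 and 5801 in OAT-1746, 4482 and 4310 in anti-PD-1, and 5028, 5931 and 5447 in COMB. C1qb had 3603 and 3768 CPM in CTR, 3571 and 3649 in OAT-1746, 3333 and 3157 in anti-PD-1, and 3324, 3961 and 3764 in COMB. C1qc had 4916 and 5424 CPM in CTR, 5200 and 5212 in OAT-1746, 4264 and 3927 in anti-PD-1, and 4648, 5327 and 4749 in COMB. The lowest library of each chain was anti-PD-1 replicate 2, and the highest was 1.38, 1.25 and 1.38 times the lowest for C1qa, C1qb and C1qc. The SD of log2 CPM over the 9 libraries was 0.17, 0.10 and 0.16, and 13.4%, 2.78% and 11.5% of all tested genes had a smaller one. OAT-1746 replicate 2, in which the monocyte markers were lowest, lay within the range of the other 8 libraries for each chain.

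**Figure D1:**
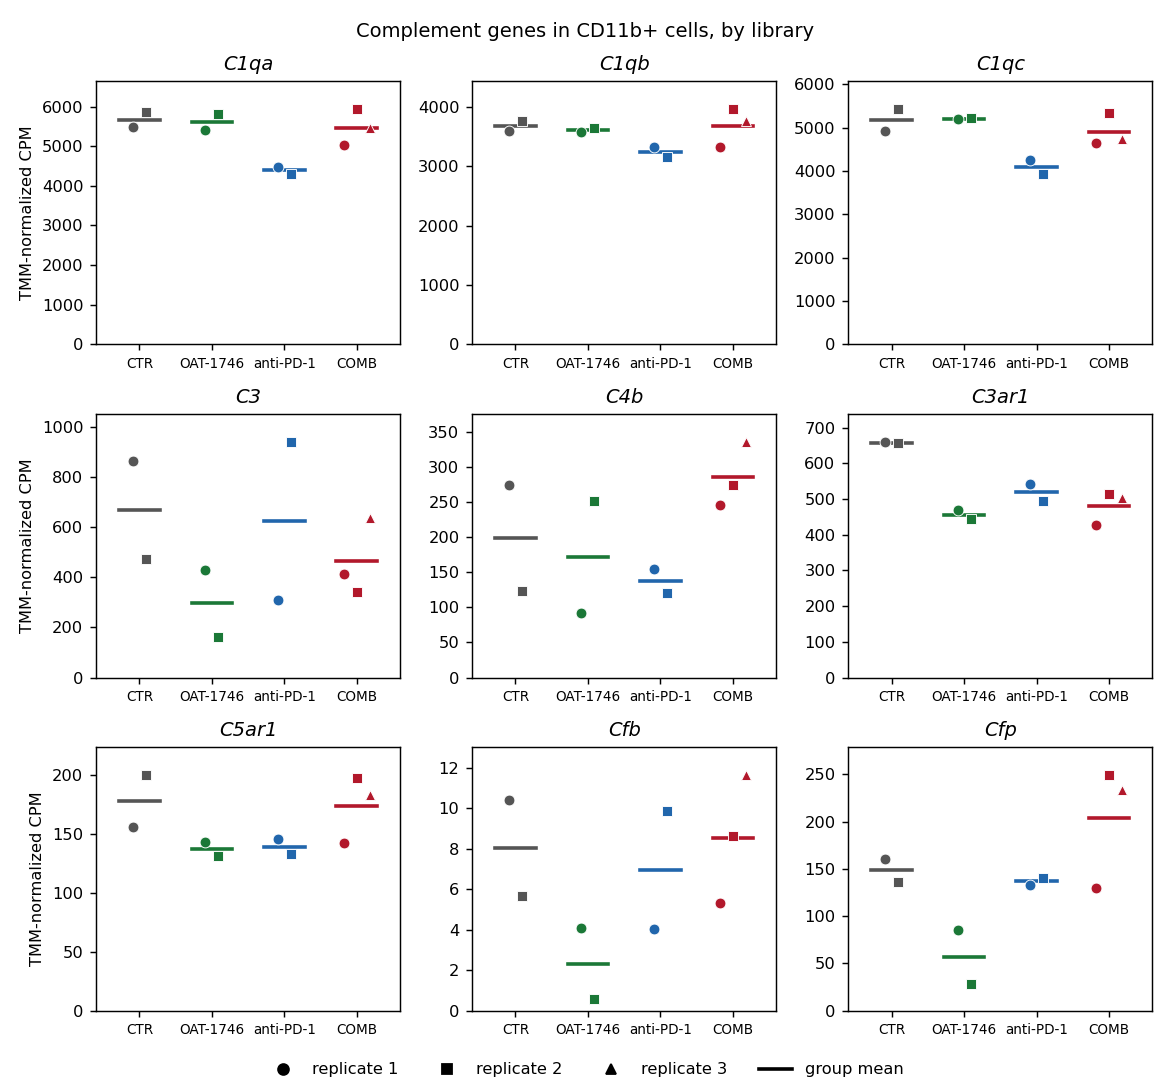
Levels of the 9 complement genes in TMM-normalized CPM (vertical axis, from 0) by group (horizontal axis). Points are libraries, shaped by replicate, and bars are group means. The C1q genes lie between 3157 and 5931 CPM, whereas Cfp ranges from 28.04 CPM in OAT-1746 replicate 2 to 249 CPM in COMB replicate 2.

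Between OAT-1746 and CTR the log2 fold change was -0.02 for C1qa (95% interval -0.41 to 0.38), -0.03 for C1qb (-0.41 to 0.35) and 0.01 for C1qc (-0.38 to 0.40). With scaling by library size only, the values of C1qa and C1qb turned to 0.07 and 0.06. Between COMB and CTR the intervals were -0.41 to 0.31, -0.35 to 0.35 and -0.43 to 0.28 in the same order, and C1qb turned from -0.00087 to 0.02 with DESeq2 size factors and to 0.03 with library size only. Under anti-PD-1 both libraries lay below both CTR libraries for each chain, with log2 fold changes of -0.37 for C1qa (standard error 0.17), -0.18 for C1qb (0.17) and -0.34 for C1qc (0.17). None of them was called, at adjusted p-values from 0.951 to 0.974 in edgeR's quasi-likelihood test. The ratio of the chains per kilobase was also lowest under anti-PD-1 for C1qa over C1qb, at 1.41 and 1.43 against 1.51 to 1.66 in the other 7 libraries, a comparison chosen after its values were seen and not tested. For C1qc over C1qb the anti-PD-1 libraries had 0.721 and 0.701, and COMB replicate 3 lay between them at 0.711.

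C3, the central component on which all pathways meet, and C4b, which acts between C1q and C3, varied widely inside the groups. C3 (ENSMUSG00000024164, chromosome 17, 57203970 to 57228136, minus strand) had 863 and 475 CPM in CTR, 428 and 163 in OAT-1746, 308 and 939 in anti-PD-1, and 413, 341 and 637 in COMB. Both OAT-1746 libraries were below both CTR libraries, but the anti-PD-1 libraries alone spanned a range wider than that of CTR. C3 averaged 668.5 ± 274 CPM in CTR (SD, n = 2) and 296 ± 187 after OAT-1746 (SD, n = 2), and 623 ± 446 after the antibody (SD, n = 2) and 464 ± 154 after both agents (SD, n = 3). The log2 fold change of C3 between OAT-1746 and CTR was -1.18 (standard error 0.59, edgeR adjusted p = 0.198), and -0.63 without OAT-1746 replicate 2. C4b (ENSMUSG00000073418, chromosome 17, 34728380 to 34743882, minus strand) had 274 and 123 CPM in CTR, 91.7 and 252 in OAT-1746, 154 and 120 in anti-PD-1, and 245, 275 and 335 in COMB. The COMB libraries lay above both anti-PD-1 libraries, whereas the CTR and OAT-1746 libraries overlapped. The log2 fold change of C4b between OAT-1746 and CTR was -0.21, and -1.10 without OAT-1746 replicate 2, and between COMB and OAT-1746 it was 0.73, and 1.65 without that library. Leaving out OAT-1746 replicate 1 instead gave 0.34 and 0.18 in the same order. Between COMB and anti-PD-1 the log2 fold change of C4b was 1.06 (95% interval 0.06 to 2.06, edgeR adjusted p = 0.665). C4a, a near-identical neighbor of C4b, held 0 to 3 counts per library, and read pairs that fit both genes could have been removed by the mapping quality filter, so that the level of C4b is uncertain.

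C3ar1 and C5ar1 encode the receptors of C3a and C5a. C3ar1 (ENSMUSG00000040552, chromosome 6, 122847138 to 122856161, minus strand) had 659 and 658 CPM in CTR, 470 and 444 in OAT-1746, 542 and 495 in anti-PD-1, and 427, 515 and 503 in COMB. The CTR libraries were nearly equal and above all 7 treated libraries, which overlapped between the OAT-1746 and COMB groups and between the anti-PD-1 and COMB groups. The log2 fold change against CTR was -0.53 for OAT-1746 (standard error 0.16, edgeR adjusted p = 0.0803), -0.34 for anti-PD-1 (0.16, adjusted p = 0.951) and -0.45 for COMB (0.15, adjusted p = 0.732). These 3 comparisons share the CTR libraries. Leaving out OAT-1746 replicate 2 gave -0.47 for OAT-1746. DESeq2 called C3ar1 between OAT-1746 and CTR (adjusted p = 0.0151, with a range of 0.0151 to 0.316 over the 19 alternatives). C5ar1 (ENSMUSG00000049130, chromosome 7, 16246743 to 16259540, minus strand) had 156 and 200 CPM in CTR, 143 and 131 in OAT-1746, 146 and 133 in anti-PD-1, and 142, 197 and 183 in COMB. It lay below both CTR libraries in the groups given a single agent and overlapped CTR in COMB. Its interaction, the effect of OAT-1746 with the antibody minus its effect without it, was 0.69 on the log2 scale (standard error 0.27, edgeR adjusted p = 0.155).

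Cfp encodes properdin, which stabilizes the C3-cleaving enzyme of the alternative pathway, and it was the member that edgeR called in the fit of all 9 libraries. Cfp (ENSMUSG00000001128, chromosome X, 20925454 to 20931555, minus strand) had 160 and 136 CPM in CTR, 85.7 and 28.04 in OAT-1746, 132 and 141 in anti-PD-1, and 130.2, 249 and 234 in COMB. Both OAT-1746 libraries were the lowest of the 9, replicate 2 by far, and COMB replicates 2 and 3 were the highest, while COMB replicate 1 lay below the CTR and anti-PD-1 libraries. Between COMB and OAT-1746 its log2 fold change was 1.84 (standard error 0.45, edgeR adjusted p = 0.0336), and 3 of 3 COMB libraries lay above both OAT-1746 libraries. The means were 148 ± 17.1 CPM in CTR (SD, n = 2), 56.9 ± 40.8 in OAT-1746 (SD, n = 2), 137 ± 5.79 in anti-PD-1 (SD, n = 2) and 204 ± 64.6 in COMB (SD, n = 3). The call was lost in 7 of 9 fits that left out a library, with edgeR adjusted p-values of 0.0548 and 0.0556 without CTR replicates 1 and 2, 0.145 without OAT-1746 replicate 2, 0.0530 and 0.0529 without anti-PD-1 replicates 1 and 2, and 0.119 and 0.121 without COMB replicates 2 and 3. Without OAT-1746 replicate 2 the log2 fold change was 1.26, and without OAT-1746 replicate 1 it was 2.87. In the other fits that left out a library and lost the call, the log2 fold change was 1.68 to 1.86. The adjusted p ranged from 0.000286 (DESeq2) to 0.217 (replicate number as a block, log2 fold change 1.81) over the 19 alternatives, and it was 0.0874 in a fit of the 2 groups alone. Between OAT-1746 and CTR the log2 fold change of Cfp was -1.38 (standard error 0.46, edgeR adjusted p = 0.0921), and -0.78 without OAT-1746 replicate 2. DESeq2 called this difference (adjusted p = 0.0242, with a range of 0.00365 to 0.331 over the alternatives). Between COMB and CTR it was 0.46 (standard error 0.42, edgeR adjusted p = 0.828), and the interaction was 1.96 (standard error 0.63, edgeR adjusted p = 0.118), 1.38 without OAT-1746 replicate 2 and 2.99 without replicate 1.

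Cfb encodes factor B, which carries the protease of the same enzyme and was the member with the lowest level. Cfb (ENSMUSG00000090231, chromosome 17, 34856374 to 34862518, minus strand) had 173 and 96 counts in CTR, 70 and 10 in OAT-1746, 58 and 175 in anti-PD-1, and 72, 131 and 164 in COMB, which is 10.4 and 5.65, 4.07 and 0.572, 4.04 and 9.86, and 5.34, 8.64 and 11.6 CPM. OAT-1746 replicate 2 was the lowest library, and the other 8 lay within a factor of 2.88 of each other. The log2 fold change was -1.79 between OAT-1746 and CTR (standard error 0.75, edgeR adjusted p = 0.141) and 1.88 between COMB and OAT-1746 (standard error 0.71, edgeR adjusted p = 0.0927), and -0.96 and 1.08 without OAT-1746 replicate 2. Leaving out OAT-1746 replicate 1 instead gave -3.79 and 3.89, with replicate 2, at 10 counts, as the group's library. DESeq2 called Cfb between COMB and OAT-1746 (adjusted p = 0.0223, with a range of 0.00774 to 0.329 over the alternatives). Of the merged exon bases of Cfb, 79.5% are shared on the same strand with Gm20547, a gene annotated across Cfb and its neighbor C2, and Gm20547 held 0 counts in all 9 libraries. How the counting treated read pairs that fall on both genes is not given in the sources used here, so that the counts of Cfb, and of C2 at 15 to 34 per library, are uncertain and may miss such pairs.

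In OAT-1746 replicate 2 the monocyte and macrophage sum was lowest, as were Cfp, Cfb and C3. Tgfbi, the most abundant gene of the list, had 366 CPM there against 2621 in OAT-1746 replicate 1 and 5703 and 4298 in CTR. Ly6c2 had 39.7 CPM in OAT-1746 replicate 2. Unlike the sum of the list, it was higher in OAT-1746 replicate 1 (929) than in CTR (303 and 692). In this list 4 of 10 genes were lower in OAT-1746 than in CTR at an unadjusted p under 0.05 and none was higher, with a median log2 fold change of -0.88 that was 0.00 without replicate 2. All 11 microglia markers were higher in OAT-1746 at an unadjusted p under 0.05, with a median of 0.94, and 0.77 without replicate 2. The 12 interferon-stimulated genes, a state rather than a cell type, summed to 1169 CPM in OAT-1746 replicate 2 and to between 3452 and 6239 CPM in the other libraries. In COMB, 10 of the 11 microglia markers were lower than in OAT-1746 at an unadjusted p under 0.05 (2 called by edgeR, median -0.72, and -0.57 without replicate 2). In that comparison 1 of 10 monocyte and macrophage markers was higher (median 0.60, and -0.22 without replicate 2), and 1 of 12 interferon-stimulated genes (0.44, and -0.34). Of 8 NK cell markers 3 were higher at that p (median 0.96, and 0.44 without replicate 2). Of 8 border-associated macrophage markers 3 were higher and 1 lower (1 called by edgeR, median -0.14, and -0.09). The part of these cell markers and of the interferon-stimulated genes in the values of Cfp, Cfb, C3 and C3ar1 was not tested.

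**Figure D2:**
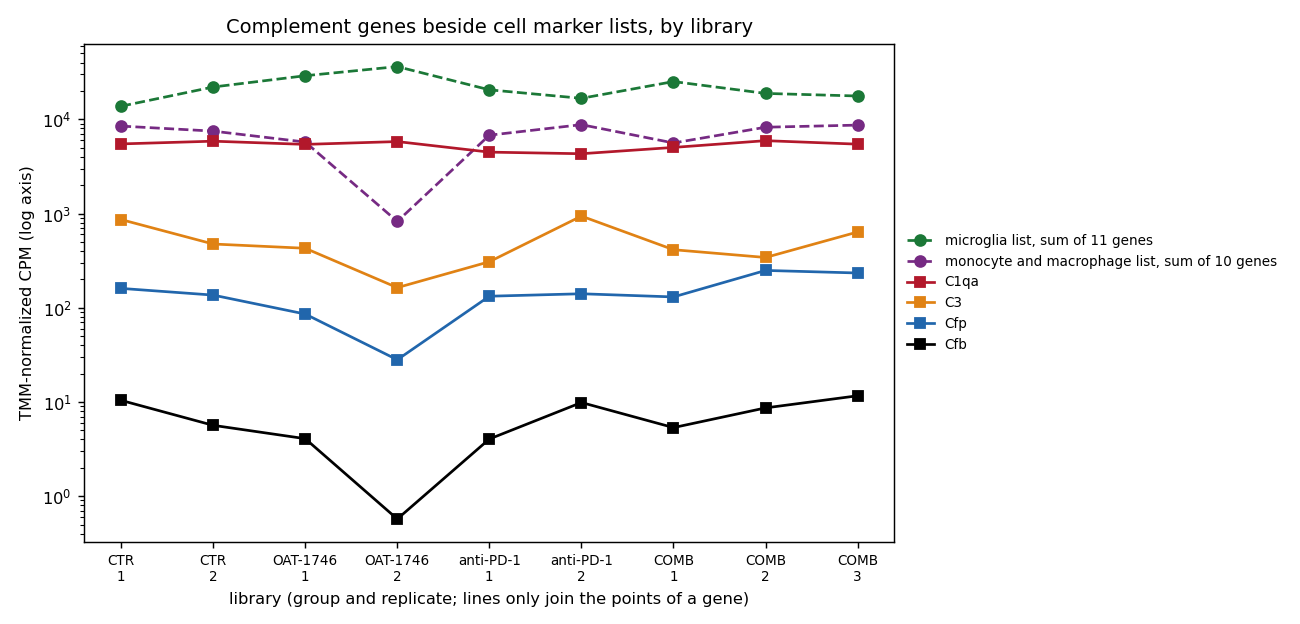
TMM-normalized CPM on a log axis (vertical) in each of the 9 libraries (horizontal) for C1qa, C3, Cfp and Cfb, with the sums of the microglia and of the monocyte and macrophage lists as dashed lines. Lines join the points of a gene or list and show no order of libraries. In OAT-1746 replicate 2 the monocyte sum is 824 CPM, Cfp 28.04 and Cfb 0.572 CPM, while C1qa is at 5801 CPM.

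Among the markers of other cells, sums were 1105 to 1345 CPM for 8 markers of border-associated macrophages, 215 to 368 for 5 of oligodendrocytes, 67.7 to 217 for 8 of neutrophils, 91.9 to 168 for 5 of endothelial cells, and 65.5 to 135 for 7 of dendritic cells. NK cell markers (8 genes) had 16.4 to 214 CPM and were highest in anti-PD-1 replicate 1, with 7 of 8 higher in anti-PD-1 than in CTR at an unadjusted p under 0.05 (0 called by edgeR). T cell markers (7 listed, 5 tested) had 7.16 to 14.5 CPM and B cell markers (5 listed, 3 tested) 10.5 to 25.8 CPM.

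Counted over the 9 genes, 0 members had an adjusted p under 0.05 in edgeR between OAT-1746 and CTR, as did 0% of all tested genes, and DESeq2 called 2 members (C3ar1 and Cfp) and 15.9% of the genes. Without OAT-1746 replicate 1, which leaves replicate 2 as the group's library, edgeR called C3, Cfb and Cfp, at adjusted p-values of 0.0450, 0.0109 and 0.00365, beside 28.2% of all genes. At an unadjusted p under 0.05 there were 3 members, all lower in OAT-1746 (C3ar1, Cfb and Cfp), beside 32.3% of all genes (2036 genes lower and 2013 higher), and 1 member without CTR replicate 1. Among the 3 members named, C4b (log2 fold change -1.10) took the place of Cfb (-0.96) when OAT-1746 replicate 2 was left out. The OAT-1746 and CTR libraries did not overlap for 5 members, all lower, beside 62.9% of all genes in either direction. The median log2 fold change of the members was -0.37, and that of all tested genes 0.01.

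Between anti-PD-1 and CTR, edgeR called 0 members and 0% of all genes, DESeq2 called 0 members and 0.112% of the genes, and 0 members were at an unadjusted p under 0.05, beside 5.12% of all genes. This last count was 3 with DESeq2, 2 with voom, with all annotated genes or without COMB replicate 1, and 1 in a fit of the 2 groups alone. All 9 log2 fold changes were below 0 (median -0.34, against 0.02 over all genes), and the libraries did not overlap for 5 members (C1qa, C1qb, C1qc, C3ar1 and C5ar1) beside 37.6% of all genes. Leaving out CTR replicate 1 turned C3 to 0.38, C4b to 0.16, Cfb to 0.30 and Cfp to 0.0021, and leaving out anti-PD-1 replicate 1 turned C3 to 0.49 and Cfb to 0.30. The replicate number as a block turned C3 to 0.0048. Between COMB and CTR, edgeR called 0 members and 0% of all genes, and DESeq2 called 0 members and 0.279% of the genes. At an unadjusted p under 0.05 there was 1 member, C3ar1, lower in COMB (0 without CTR replicate 2 or with the replicate number as a block, and 2 with voom), beside 6.58% of all genes, and the libraries did not overlap for the same 1 member beside 27.9% of all genes.

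Between COMB and OAT-1746, which asks what the antibody adds to the inhibitor, edgeR called 1 member, Cfp, beside 15.8% of all genes, and DESeq2 called Cfp and Cfb beside 24.4%. Without OAT-1746 replicate 1 edgeR also called both, beside 31.4% of all genes, and without any 1 of the 7 libraries named above for Cfp it called 0 members. Those 2 genes were also the members at an unadjusted p under 0.05 (1 member without COMB replicate 3 or with the replicate number as a block), beside 37.1%, and the members whose libraries did not overlap, beside 54% of all genes. At the unadjusted p, C4b (log2 fold change 1.65) took the place of Cfb (1.08) when OAT-1746 replicate 2 was left out. Between COMB and anti-PD-1, which asks what the inhibitor adds to the antibody, edgeR called 0 members and 0% of all genes, and DESeq2 called 0 members and 0.375%. C4b was the 1 member at an unadjusted p under 0.05, beside 7.23%. This count became 0 without either anti-PD-1 library or COMB replicate 2 or 3, with robust estimation and with the replicate number as a block. It became 2 without either OAT-1746 library, 3 without COMB replicate 1 or with DESeq2, and 4 with voom. C1qa, C1qc and C4b did not overlap between these groups, all higher in COMB, beside 26.4% of all genes. For the interaction edgeR called 0 members, beside 0.359% of all genes, and DESeq2 called 1 member (Cfp) and 8.18% of the genes, while edgeR without OAT-1746 replicate 1 called 2, Cfb and Cfp, beside 21.3% of all genes. At an unadjusted p under 0.05 the interaction was above 0 for 2 members, C5ar1 and Cfp, beside 26.2% of all genes in either direction. This count was 1 without COMB replicate 2 or with the replicate number as a block, 4 with no low-count filter, and 5 with DESeq2 or voom. When OAT-1746 replicate 2 was left out, C4b took the place of C5ar1. The interaction of C4b was 1.26, and 2.18 without that library, and that of C5ar1 0.69, and 0.65. All 9 interactions were above 0 (median 0.69, against -0.02 over all genes), and without OAT-1746 replicate 2 their median was 0.39.

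**Figure D3:**
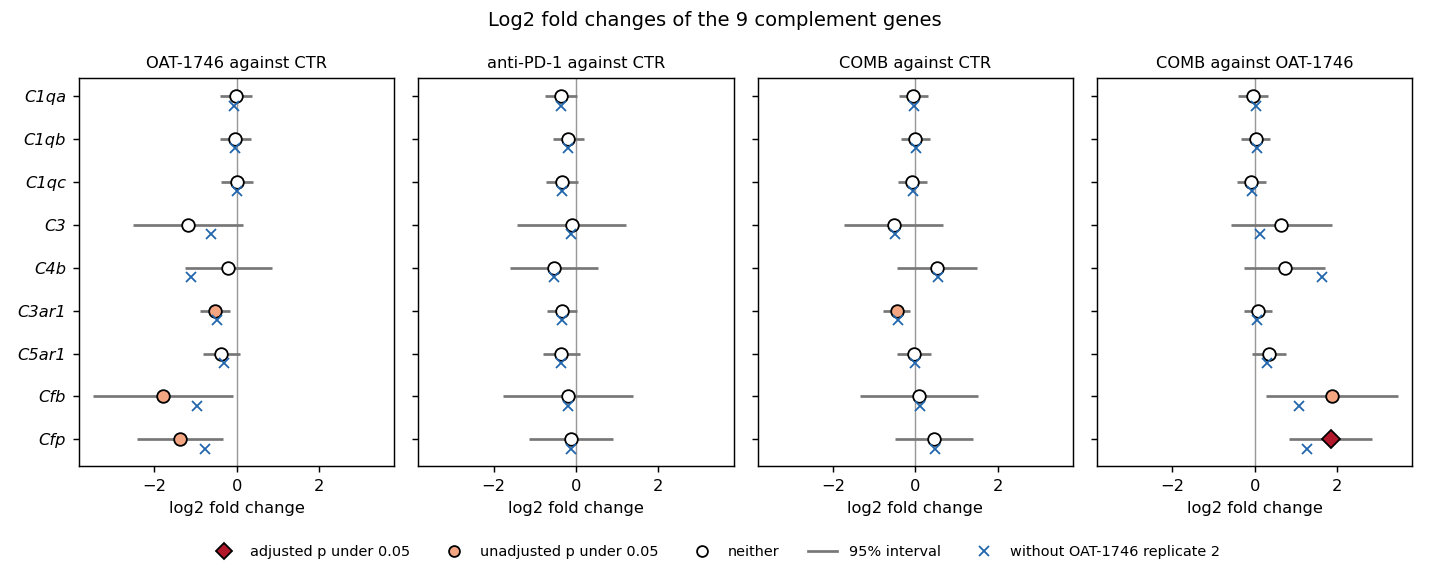
Log2 fold changes (horizontal axis) of the 9 genes (vertical axis) in 4 comparisons from edgeR's quasi-likelihood fit, with 95% intervals as bars. The diamond marks an adjusted p under 0.05, filled circles an unadjusted p under 0.05, and crosses the value without OAT-1746 replicate 2. Cfp between COMB and OAT-1746 is the called value, at 1.84, and lies at 1.26 without that library.

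Of 48 other complement genes listed, 20 passed the low-count filter, and between OAT-1746 and CTR 4 of them were higher and 4 lower at an unadjusted p under 0.05 (0 called by edgeR, 4 by DESeq2), beside 32.3% of all genes at such a p and the 15.9% called by DESeq2. The 8 became 3 without CTR replicate 1 and 5 without OAT-1746 replicate 2. Among the receptors, Itgam (0.41, and 0.42 without OAT-1746 replicate 2) and C5ar2 (0.43, and 0.51), which encodes a further receptor of C5a, were higher in OAT-1746 at an unadjusted p under 0.05. Itgax, which encodes the alpha chain of complement receptor 4, had 1431 and 667 CPM in CTR and 404 and 96.4 in OAT-1746 (log2 fold change -2.07, and -1.36 without replicate 2), and Cd93 had 350 and 258 in CTR and 133 and 27.2 in OAT-1746 (-1.92, and -1.18 without replicate 2). Itgb2, the beta chain shared by complement receptors 3 and 4, had a log2 fold change of -0.39 (standard error 0.24), and -0.13 without replicate 2. Also at an unadjusted p under 0.05 were C1ra (-1.19, and -0.99 without replicate 2), a protease that works with C1q, C1qbp (-0.65, and -0.47), and Cd55 (2.23, and 1.31). Cd55 had 0 counts in CTR replicate 2 and under 1.5 CPM in all 9 libraries, and its unadjusted p was 0.295 without OAT-1746 replicate 2. Of 7 dendritic cell markers, 3 were lower in OAT-1746 than in CTR at an unadjusted p under 0.05 (0 called by edgeR, median -0.55, and -0.33 without replicate 2), and their part in the values of Itgax and Cd93 was not tested.

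Between COMB and OAT-1746 5 of the 20 genes were higher and 2 lower at an unadjusted p under 0.05, beside 37.1% of all genes. These became 4 in all without COMB replicate 3. Of the 20, edgeR called 3, each higher in COMB, beside the 15.8% of all genes given above. Both counts are near these shares over all genes. C1ra had 15.4 and 11.6 CPM in OAT-1746 and 23.2, 49.9 and 51.0 in COMB (log2 fold change 1.62, standard error 0.41, edgeR adjusted p = 0.0371). Clu, which encodes clusterin, an inhibitor of the terminal pathway, had 8.26 and 11.4 CPM in OAT-1746 and 29.8, 17.5 and 19.9 in COMB (1.18, standard error 0.30, edgeR adjusted p = 0.0375). C1qbp had 49.3 and 38.5 CPM in OAT-1746 and 65.3, 73.4 and 74.4 in COMB (0.69, standard error 0.15, edgeR adjusted p = 0.0282). Without OAT-1746 replicate 2 the log2 fold changes of C1ra, Clu and C1qbp were 1.44, 1.45 and 0.54, and none was called, at edgeR adjusted p-values of 0.201, 0.153 and 0.171. In the same order the log2 fold changes were 1.46, 1.33 and 0.67 without COMB replicate 2, and 1.43, 1.28 and 0.66 without replicate 3. All 3 calls were also lost without COMB replicate 2 (edgeR adjusted p-values of 0.127, 0.101 and 0.107) and without COMB replicate 3 (0.127, 0.121 and 0.115). That of C1ra was lost without CTR replicate 1 or 2 (0.0517 and 0.0535), and that of Clu without any of the 9 libraries, at 0.0504 to 0.153. Clu was also higher in each COMB library than in each CTR and anti-PD-1 library, with 7.03 and 10.4 CPM in CTR and 14.3 and 9.81 in anti-PD-1. Against CTR its log2 fold change in COMB was 1.36 (standard error 0.31, edgeR adjusted p = 0.673), and DESeq2 called it. Vtn, which encodes vitronectin, another inhibitor of the terminal pathway, had 7.73 and 4.001 CPM in anti-PD-1 and 14.7, 15.2 and 15.5 in COMB (log2 fold change 1.38, standard error 0.27, edgeR adjusted p = 0.424), and DESeq2 called it. Of 6 astrocyte markers, 4 were higher in COMB than in CTR at an unadjusted p under 0.05, and their sum was 108 and 141 CPM in CTR, 179 and 229 in OAT-1746, 120 and 105 in anti-PD-1, and 181, 189 and 173 in COMB, with Slc1a3 the most abundant and none at 0 counts. Compared with OAT-1746, 4 of the 6 were higher in COMB and 2 lower at an unadjusted p under 0.05 (3 called by edgeR). Compared with anti-PD-1, 2 of them were higher in COMB (median 0.74), as were 4 of 8 neutrophil markers with 1 lower (0.84), while 6 of 12 interferon-stimulated genes (-0.87) and 2 of 8 NK cell markers were lower, with 0 called by edgeR. Against CTR, 4 of 8 NK cell markers (median 1.35), 3 of 8 neutrophil markers (0.57) and 2 of 5 endothelial markers (0.03) were higher in COMB. This was at an unadjusted p under 0.05, with none of these lower and 0 called by edgeR. The part of these cells and genes in the levels of Clu, Vtn, Serping1, C1s1 and C4b was not tested.

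At an unadjusted p under 0.05, Vtn was the 1 of 20 genes that differed between anti-PD-1 and CTR (log2 fold change -0.82), beside 5.12% of all genes. C1s1, Serping1 and Clu were higher in COMB than in CTR (3 of 20 genes, and 1 without CTR replicate 2 or COMB replicate 3), beside 6.58% of all genes, and Serping1, Clu and Vtn higher in COMB than in anti-PD-1, beside 7.23%. Serping1, which encodes the C1 inhibitor, had 1.86 and 1.41 CPM in CTR and 3.26, 8.58 and 8.08 in COMB. C1s1, a protease that works with C1r and C1q, stayed under 3 CPM in all 9 libraries. C2, Masp1, Fcna, Colec12, C8g, Cd59a and Cr1l passed the filter and had an unadjusted p of 0.05 or more in all 6 comparisons, with Cr1l the highest of them, at 88.7 to 119 CPM. Of the 28 genes that did not pass, those at 0 counts in all 9 libraries included C1rb, Masp2, Mbl1, Mbl2, Colec10, Cfd, C7, C8a, C8b, C9, C4bp, Cd55b and Cpn2, and the highest of the rest was Cd46 with at most 11 counts in a library. Of the components from C5 onward, Hc, which encodes C5, held at most 1 count in a library and C6 at most 9, and C8g, which passed the filter, had 0.235 to 1.49 CPM.

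**Figure D4:**
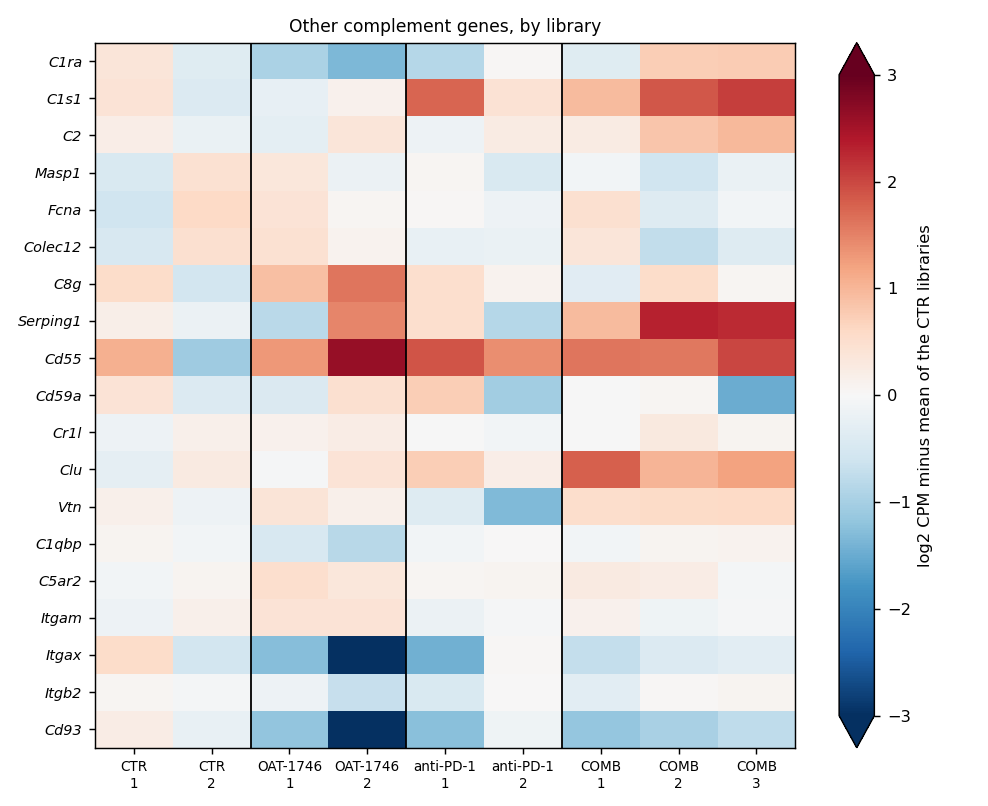
Log2 CPM (prior count 2) of 19 of the 20 other complement genes that passed the low-count filter, minus the mean of the CTR libraries, in color from -3 to 3, with genes as rows and the 9 libraries as columns. Itgax and Cd93 are lowest in OAT-1746 replicate 2 and Clu is highest in the 3 COMB libraries.

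Genes most like a member were taken as those with the highest Pearson's r of log2 CPM over the 9 libraries, among 8206 tested genes with a mean of at least 10 CPM. These correlations describe 9 libraries that share groups, depth and cell makeup, and carry no p-value. The mean of the C1q chains was most like Asah1 (r = 0.970, Spearman's rho 0.883), which encodes acid ceramidase, a lysosomal enzyme, followed by Tram1 (0.968, rho 0.933) and Alg11 (0.957, rho 0.983). Without OAT-1746 replicate 2 these were 0.968, 0.981 and 0.964. Over the 9 libraries, 12 genes had an r over 0.9 with this mean, and 26 without that library. Cfp was most like Psmd13 (r = 0.996, rho 0.950), Mrpl35 (0.993, rho 0.950) and Mgst1 (0.993, rho 0.850), and Cfb was most like Spon1 (0.992, rho 0.950), Itgal (0.990, rho 0.950) and Tnfaip2 (0.990, rho 0.833). For Cfp 1152 genes and for Cfb 775 genes had an r over 0.9, and without OAT-1746 replicate 2 these were 393 and 88, and Psmd13 had 0.985 with Cfp and Spon1 0.963 with Cfb. Closest without that library were Ap2s1 to Cfp (0.994) and Man2a1 to Cfb (0.976), and Psmd13 ranked 3 and Spon1 ranked 6. C3 was most like Abr (0.981, rho 0.933), Nucb2 (0.977, rho 0.933) and Usp15 (0.975, rho 0.983), with 123 genes over 0.9, and C5ar1 most like Serhl (0.969, rho 0.950), Alg5 (0.965, rho 0.9) and Vps28 (0.954, rho 0.917), with 28. Without OAT-1746 replicate 2 these counts were 98 and 47, and Rrbp1 (0.971) and BC004004 (0.986) were closest. C3ar1 was most like Gps2 (0.959, rho 0.850), Exosc1 (0.933, rho 0.883) and G3bp2 (0.931, rho 0.800), with 4 genes over 0.9, and 11 without OAT-1746 replicate 2, where Gltp was closest (0.984). C4b was least like any other gene, with Lztfl1 (0.865, rho 0.867), Slc37a4 (0.844, rho 0.850) and Mr1 (0.833, rho 0.717), and 0 genes over 0.9. Without OAT-1746 replicate 2 these genes had 0.865, 0.854 and 0.832, and Lztfl1 ranked 29. The closest gene was then Cinp (0.951), and 6 genes were over 0.9. The rank of the genes named, rather than their r, therefore rests on that library. Among the members, Cfb and Cfp had an r of 0.942, which was 0.746 without OAT-1746 replicate 2, C3 and Cfb had 0.857 (0.718 without it), and C3 and Cfp 0.640 (0.091). C4b had 0.193 with Cfp and 0.067 with Cfb, which were 0.809 and 0.610 without that library.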

How the data were processed

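CD11b+ cells of 9 libraries were sequenced. After trimming (Trimmomatic), alignment to mm10 (STAR) and marking of duplicates (Picard), the authors deposited raw counts of read pairs per gene from HTSeq (reverse stranded, mapping quality of at least 10). Here symbols and merged exons came from GENCODE M21. Of 53801 genes in the table, 53620 were annotated and 21890 protein-coding, and 12538 of these passed filterByExpr with a minimum count of 10. edgeR 4.0.16 in R 4.3.3 (TMM, quasi-likelihood test, a mean for each of 4 groups, all 9 libraries in 1 fit) gave log2 fold changes, 95% intervals and Benjamini-Hochberg adjusted p-values over all tested genes, called under 0.05. The method was tested on simulated counts, in which no library was made to stand apart as OAT-1746 replicate 2 does here.

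The alternatives were DESeq2 1.42.0 (Wald test), limma 3.58.1 (voom with quality weights), no low-count filter, scaling with DESeq2 size factors or with library size only, all annotated genes, a filter of at least 10 counts in every library, robust dispersion, the groups compared alone, replicate number as a block, and leaving out each library. Named are the 9 members, the other complement genes that passed the filter (a few genes of the lists enter the counts and sums but are not reported here), and for each member, with the C1q chains as 1 mean, the 3 genes with the highest Pearson's r among those with a mean of at least 10 CPM. The members and the lists were chosen with earlier results of these data known.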

Additional observations from a re-analysis of the deposited data

How the results depend on the processing

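Between COMB and OAT-1746, where edgeR called 1 member, 11 of 19 alternatives moved the count of members called. Of 1017 log2 fold changes of members under an alternative, 956 kept their direction and side of the threshold, 41 turned sign, 11 passed the threshold in addition and 9 no longer passed it. Those that turned sign were at most 0.53 in size as reported. The cause was not tested for any of these.

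Members called were 2 with DESeq2 between OAT-1746 and CTR (0 to 3 with a library left out), 2 with DESeq2 and 0 in a fit of the groups compared alone between COMB and OAT-1746 (0 to 2 with a library left out), and 1 with DESeq2 and 1 with voom for the interaction (0 to 2 with a library left out). A group left with 1 library was assumed to vary like the others.

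Log2 fold changes between OAT-1746 and CTR turned for C1qa to 0.074 with library size only, 0.010 with at least 10 counts in every library and 0.00033 in a fit of these groups alone, and for C1qb to 0.059 with library size only. Between COMB and CTR, C1qb turned to 0.019 with DESeq2, 0.019 with DESeq2 size factors, 0.033 with library size only, 0.025 with no low-count filter, 0.036 with at least 10 counts in every library, 0.030 with voom and 0.0029 in a fit of these groups alone, and C5ar1 turned to 0.0050 with at least 10 counts in every library and 0.044 with voom. C1qb turned to -0.025 between COMB and OAT-1746 with library size only, and C3 to 0.019 between COMB and anti-PD-1 with voom.

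With a library left out, values between OAT-1746 and CTR ranged from -0.054 to 0.029 for C1qa, -0.048 to 0.074 for C1qc and -1.10 to 0.49 for C4b. Between anti-PD-1 and CTR they ranged from -1.13 to 0.49 for C3, -1.005 to 0.16 for C4b, -0.99 to 0.30 for Cfb and -0.24 to 0.0021 for Cfp. Between COMB and CTR they ranged from -0.056 to 0.046 for C1qb, -0.17 to 0.15 for C5ar1 and -0.29 to 0.62 for Cfb. Between COMB and OAT-1746 they ranged from -0.098 to 0.027 for C1qa and -0.026 to 0.066 for C1qb, and between COMB and anti-PD-1 from -1.02 to 0.60 for C3 and -0.21 to 1.08 for Cfb.

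The deviations of libraries from their group means showed no clear pairing by replicate number, with correlations of -0.35 to 0.10 in 12 same-numbered pairs. Of 9 libraries, 0 correlated best with one of its own number. COMB replicate 3 has no library of its number in another group, so that its outcome was fixed. In a group of 2 libraries the deviations mirror each other. These pairs and matches are therefore not separate outcomes and cannot exclude a pairing. With the replicate number as a block, 0 members were called between COMB and OAT-1746, and C3 turned to 0.0048 between anti-PD-1 and CTR, Cfb to -0.13 between COMB and CTR, and Cfb to -0.016 between COMB and anti-PD-1. It changed no other call of a member.

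Over all genes, edgeR called 0 against CTR in each of 3 comparisons, and DESeq2 called 1996 for OAT-1746, 14 for the antibody and 35 for both agents. For OAT-1746 edgeR called 587 with no low-count filter, 3617 without OAT-1746 replicate 1, 278 without COMB replicate 1 and 0 without any other library. Comparing COMB with OAT-1746, edgeR called 1979 and DESeq2 3062, and comparing it with the antibody alone 0 and 47 (35 with voom, and 0 to 52 with a library left out). The interaction was called for 45 genes by edgeR, 1025 by DESeq2, 428 by voom, 146 with no low-count filter, 24 with library size only and 0 with the replicate number as a block. With a library left out, edgeR called from 0 to 2734 for the interaction. With a library left out, the calls of edgeR between COMB and OAT-1746 ranged from 5 to 4033, and with the replicate number as a block there were 2. In a fit of COMB and OAT-1746 alone edgeR called 30 genes between them. Scaling by library size only shifted the median log2 fold change by at most 0.09, and raised the share higher in COMB than in CTR, among genes at an unadjusted p under 0.05, from 48.8% to 62.3%. With 2 or 3 libraries in a group, a p that misses the threshold does not show equal levels.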
